A study of Mus musculus with 5 samples.

Results

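Connexins are the subunits of gap junctions, the channels that join the cytoplasm of neighbouring cells and let ions and small molecules pass between them. Each cell contributes a hemichannel built of connexin subunits, and hemichannels of adjoining cells dock to form a continuous pore. In smooth muscle of the urinary tract and in the heart, such channels carry the electrical signal from pacemaker cells to the muscle they drive, while in vessels and tubules they couple endothelial or epithelial cells. The genes fall into subfamilies by sequence, of which Gja, Gjb and Gjc are described here.

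The members were the 8 connexin genes Gja1, Gja4, Gja5, Gjb1, Gjb2, Gjb5, Gjb6 and Gjc1, taken by symbol from the deposited table, and all 8 were found among its 18044 genes. A further 9 connexin genes of the table serve for comparison. RNA was sequenced from cells of the pelvis-kidney junction, where the renal pelvis joins the kidney, taken at E18.5, late in gestation, from wild-type C57BL/6 mice. Tissue of all embryos was pooled and digested with collagenase, and cells were sorted by flow cytometry on HCN3, a cation channel of pacemaker cells. The labels give 2 HCN3-positive libraries, described as urinary tract pacemaker cells, and 3 HCN3-negative libraries from other cells of the same junction. A library is named below by its label and number, as positive-labelled 1 or negative-labelled 3. Nothing states that replicates came from separate pools, so the p-values rest on a spread between libraries that may be no more than technical.

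Libraries held 24588864 to 39034478 reads assigned to genes. The unit is the normalized read count, in which the authors divided the reads of a library by its size factor. In all 18047 rows of the authors' deposited table, the fold is a mean over positive-labelled 2, negative-labelled 1 and negative-labelled 3 relative to a mean over positive-labelled 1 and negative-labelled 2, so it divides the libraries across the labels. The pair is called the first set below and the other 3 libraries the second set, and neither is called HCN3-positive. Hcn3 itself had 0 and 60 reads under the positive label, and 116, 29 and 45 under the negative label, in the order of the library numbers that all values follow here. Correlated across genes (Spearman's rho, with genes no independent replicates), the first pair reached 0.951, pairs within the second set 0.954 to 0.974, and pairs that cross the sets 0.790 to 0.845. The libraries thus stand apart by set and not by label, and both divisions are reported for every connexin. The files do not settle whether the labels or the table's division is right, so every value by label holds only as far as the labels do.

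Sequence before the transcription start is shown for 3 members that differed between the sets, Gja1, Gja4 and Gja5, and for Gjb2, which lay the opposite way, so that the promoters can be compared. The RefSeq table (GRCm38.p6, the mm10 build) held a promoter for 7 of the 8 members, all but Gjc1. Each line gives 250 bases ending at the base before the RefSeq start, 5′ to 3′ on the gene's own strand, and capitals mark matches to 4 motifs searched on both strands: TATAAA (known as the TATA box), GGGCGG (known as the GC box), TGANTCA (an AP-1 site) and GGTGTGA (a T-box element). The windows are chr10:56377050-56377299 on the plus strand for Gja1, chr4:127314040-127314289 on the minus strand for Gja4, chr3:97032152-97032401 on the plus strand for Gja5 and chr14:57104703-57104952 on the minus strand for Gjb2.
Gja1: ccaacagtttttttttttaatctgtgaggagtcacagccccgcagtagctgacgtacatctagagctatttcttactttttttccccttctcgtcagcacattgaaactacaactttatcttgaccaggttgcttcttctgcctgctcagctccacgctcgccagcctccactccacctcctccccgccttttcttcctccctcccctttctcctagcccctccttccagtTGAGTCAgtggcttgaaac
Gja4: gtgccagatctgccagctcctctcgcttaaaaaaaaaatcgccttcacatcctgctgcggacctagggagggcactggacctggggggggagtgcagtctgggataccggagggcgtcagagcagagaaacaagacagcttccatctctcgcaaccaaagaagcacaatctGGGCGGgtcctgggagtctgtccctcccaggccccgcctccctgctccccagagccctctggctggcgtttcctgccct
Gja5: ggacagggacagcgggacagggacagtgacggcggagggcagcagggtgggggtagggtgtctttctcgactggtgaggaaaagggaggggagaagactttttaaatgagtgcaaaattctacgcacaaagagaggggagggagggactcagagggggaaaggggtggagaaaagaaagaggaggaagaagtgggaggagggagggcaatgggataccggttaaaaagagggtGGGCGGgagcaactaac
Gjb2: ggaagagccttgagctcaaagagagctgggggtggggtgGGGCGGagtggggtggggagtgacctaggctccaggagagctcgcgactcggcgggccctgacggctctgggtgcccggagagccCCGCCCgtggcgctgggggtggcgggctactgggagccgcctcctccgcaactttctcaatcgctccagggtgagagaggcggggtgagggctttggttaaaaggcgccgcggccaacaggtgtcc
The Gja1 window held 1 AP-1 match, 19 to 13 bases before the start, and no match to the other motifs. The windows of Gja4 and Gja5 held 1 GC box each, 79 to 74 and 17 to 12 bases before the start. The Gjb2 window held 2 GC boxes, 1 on each strand. Of 32851 windows of the same length in the table, 6.75% held the AP-1 motif, 32.7% the GC box, 12.4% the TATA box and 3.33% the T-box element. The G and C content was 50% for Gja1, 61.2% for Gja4, 56.4% for Gja5 and 69.2% for Gjb2, against a median of 52.4% over all windows. A match is a description of these letters and not a measured binding site. None of the 4 windows overlapped an exon of its gene in GENCODE M21, although the Gja5 window lies within the span of a longer GENCODE model of that gene.

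Gja1, which encodes Cx43, the most widely expressed gap junction protein of smooth muscle, heart and mesenchyme, had the highest normalized count of the members in 5 of 5 libraries. The gene lies at chr10:56377330-56402513 on the plus strand. Its normalized counts were 933 and 6493 under the positive label, and 4453, 2298 and 5091 under the negative label. The labelled groups overlapped, since the highest and the lowest value both carry the positive label. The sets did not overlap, with means of 1616 ± 965 (SD, n = 2) in the first and 5346 ± 1044 (SD, n = 3) in the second.

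Gjc1, which encodes Cx45, a connexin of early cardiac conduction tissue and of vascular smooth muscle, divided the libraries in the same way. The gene lies at chr11:102799579-102819700 on the minus strand. Normalized counts were 630 and 3098 under the positive label, and 3552, 812 and 2726 under the negative label. The first set had a mean of 721 ± 129 (SD, n = 2) and the second 3126 ± 414 (SD, n = 3), and within each set the libraries lay close together whatever their label.

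Gja5 encodes Cx40, a connexin of arterial endothelium, renin cells and the atrial and ventricular conduction system. Its normalized counts were 226 and 1695 under the positive label, and 3095, 336 and 2234 under the negative label. The means were 281 ± 78.3 (SD, n = 2) in the first set and 2342 ± 706 (SD, n = 3) in the second, again with no overlap. In GENCODE M21 the gene spans chr3:96904693-97077416 on the plus strand. That span overlaps other genes on the minus strand, Gpr89 and the antisense transcripts 9230114J08Rik and 4930573H18Rik among them. No source says that the libraries keep strand, so their reads and those of Gja5 may not be told apart.

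Gja4 encodes Cx37, which is found with Cx40 in endothelium. The gene lies at chr4:127311421-127314039 on the minus strand. Normalized counts were 125 and 871 under the positive label, and 1213, 180 and 2287 under the negative label. The highest value was that of negative-labelled 3, and the sets did not overlap, at 153 ± 38.4 (SD, n = 2) and 1457 ± 739 (SD, n = 3).

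Gjb1 and Gjb2, which encode Cx32 and Cx26, the connexins of liver and many other epithelia, were higher in both libraries of the first set than in any of the second. Gjb1 (chrX:101376378-101385629, plus strand) had normalized counts of 368 and 244 under the positive label, and 271, 492 and 261 under the negative label. It varied least of the members detected in every library, with 2.01-fold between its highest and its lowest library. Gjb2 (chr14:57098600-57104702, minus strand) had normalized counts of 216 and 24.5 under the positive label, and 25.8, 96.6 and 50.2 under the negative label, from 29 to 153 reads. Its first-set libraries were themselves apart, with a mean of 156 ± 84.2 (SD, n = 2) against 33.5 ± 14.5 (SD, n = 3) in the second set.

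Gjb5 and Gjb6, which encode Cx31.1 and Cx30, connexins of skin and of inner ear and other epithelia, were near the limit of detection. Gjb5 (chr4:127354809-127358181, minus strand) had 14 and 57 reads under the positive label, and 0, 29 and 25 under the negative label. Gjb6 (chr14:57123303-57133611, minus strand) had 0 and 45 reads under the positive label, and 12, 11 and 11 under the negative label. In the libraries where these counts were 0, the limit that a count of 0 allows, 3 reads, is a normalized count of 2.67 for Gjb5 and 4.23 for Gjb6, for counting error only. Both genes overlapped between the labels and between the sets.

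**Figure D1:**
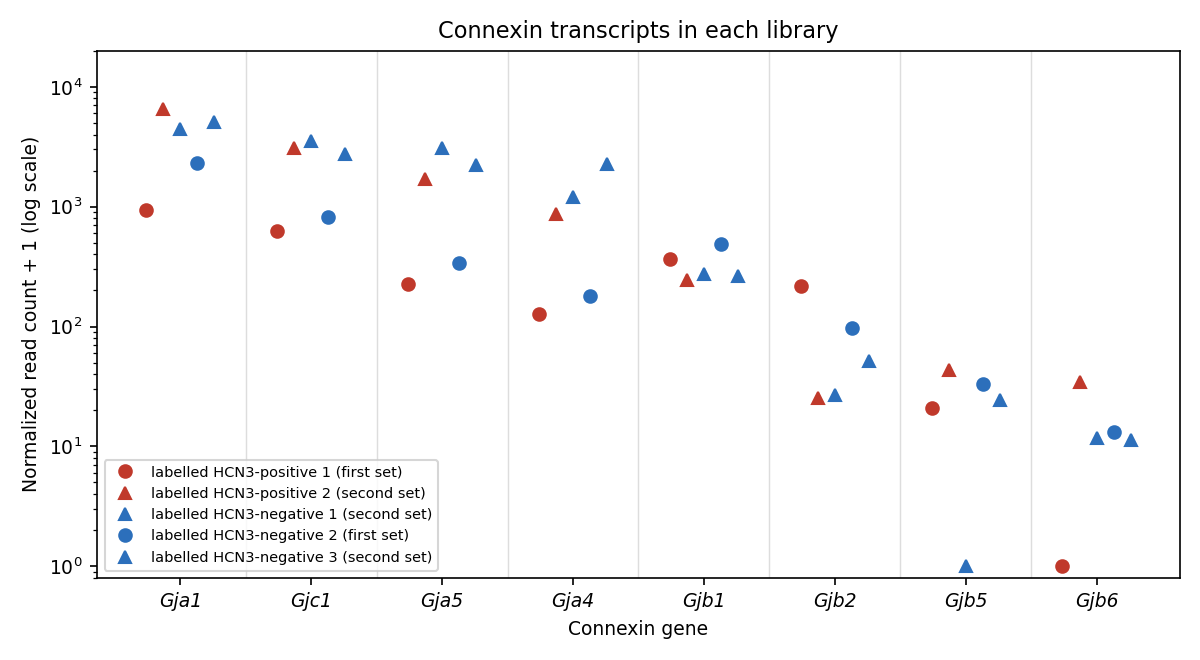
Normalized read count plus 1 (vertical axis, log scale) of the 8 connexin genes (horizontal axis). Each point is 1 of the 5 libraries, red for the HCN3-positive and blue for the HCN3-negative label, circles for the first and triangles for the second set. For Gja1, Gjc1, Gja5 and Gja4 both circles lie below all triangles, for Gjb1 and Gjb2 above them, and red and blue points overlap for every gene.

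The design asks which transcripts set HCN3-positive cells apart, and by label no member passed the test of that question. Of the 8 members, 0 passed the limma test at an adjusted p of 0.05, against 0% of the 16579 genes tested, and for 8 of 8 the labelled groups overlapped, whereas 10.8% of the genes tested had groups that did not overlap, 5.34% with the positive label higher and 5.44% with the negative label higher. The log2 fold change, positive label over negative label, was -0.60 for Gja1 (95% interval -2.84 to 1.64) and -0.51 for Gjc1 (-2.88 to 1.86). Values were -1.10 (-4.39 to 2.19) for Gja5 and -1.26 (-4.73 to 2.21) for Gja4. Intervals of this width leave differences of several-fold in either direction undetectable for these genes.

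Among the Gjb members the labelled difference was -0.12 (-1.47 to 1.23) for Gjb1, 0.54 (-2.62 to 3.69) for Gjb2, 1.69 (-3.04 to 6.42) for Gjb5 and -1.04 (-5.52 to 3.45) for Gjb6, all on the log2(normalized count + 1) scale. For low genes with libraries at 0 this scale differs from the folds of the counts: by label edgeR and DESeq2 gave 0.76 and 0.75 for Gjb5, and 0.64 and 0.61 for Gjb6, none of them passing. The adjusted limma p was 1.00 for each member. Over the members the median was -0.56, beside -0.029 over all genes tested. By label, 157 genes had an unadjusted p under 0.05 in limma. On the recovered reads edgeR called 0 genes (165 unadjusted) and DESeq2 called 10 (464 unadjusted), none of them a member. Without positive-labelled 1 the difference turned positive for Gja1 (0.80), Gjc1 (0.64), Gja5 (0.35) and Gja4 (0.13), and none of these values passed.

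Between the sets of the deposited table, 4 of the 8 members passed as higher in the second set and 0 as higher in the first. Those that passed were Gja1, Gja4, Gja5 and Gjc1, the Gja and Gjc members on the list, and none of the 4 Gjb members did. Of the 16579 genes tested 20.5% passed, 9.88% as higher in the second set and 10.6% as higher in the first. For 6 of the 8 members the sets did not overlap, 4 with the second set higher and 2 with the first, which was so of 49.6% of the genes tested (26.1% and 23.5%). The median log2 difference, second set over first, was 1.98 over the members and 0.069 over all genes tested. In these bulk samples fewer cells of a type and less RNA per cell cannot be told apart. Markers of several cell types passed between the same sets, at the values given after those of the connexins, and their part in the connexin differences was not tested.

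Gja5 rose by 3.04 on the log2 scale in the second set (SE 0.35, adjusted limma p of 0.00196), and Gja4 by 3.15 (SE 0.47, adjusted limma p of 0.00518). In the authors' deposited table the folds of their means were 8.34 and 9.55, with adjusted p of 6.93e-06 and 0.0168. Gjc1 rose by 2.12 (SE 0.23, adjusted limma p of 0.00177), and the fold in the authors' deposited table was 4.33 with an adjusted p of 2.99e-05. Gja1 rose by 1.85 (SE 0.39, adjusted limma p of 0.0176), and the fold in the authors' deposited table was 3.31 with an adjusted p of 0.000681. The same 4 members passed there, none of them as higher in the first set, whereas of all 18044 genes 14.2% passed, 6.09% as higher in the second set and 8.1% as higher in the first.

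Since the sets did not overlap for Gja1, Gjc1, Gja5 and Gja4, the same direction within each label was fixed in advance. The folds below give only its size. Under the positive label, the second-set library exceeded the first-set one 6.96-fold for Gja1, 4.92-fold for Gjc1, 7.52-fold for Gja5 and 6.94-fold for Gja4. Under the negative label, libraries 1 and 3 exceeded library 2 by 1.94-fold and 2.21-fold for Gja1, and by 4.37-fold and 3.36-fold for Gjc1. For Gja5 these folds were 9.20 and 6.64, and for Gja4 6.74 and 12.7. Gja1 was thus the one of these 4 whose step between the sets depended most on which first-set library was taken, since its first-set libraries differed 2.46-fold, against 1.29-fold for Gjc1, 1.43-fold for Gja4 and 1.49-fold for Gja5.

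Gja1 lost the call without positive-labelled 1, where its log2 difference fell to 1.20 (adjusted limma p of 0.0719). It also lost the call without positive-labelled 2 or negative-labelled 1, at log2 differences of 1.70 and 1.97 (adjusted limma p of 0.0739 and 0.0535). Gja4 lost it without positive-labelled 1, at 2.89 (adjusted limma p of 0.0535). Gja5 and Gjc1 passed with each library left out in turn, so that 2 to 4 members passed over these 5 fits.

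For the Gjb members the log2 difference between the sets was -2.15 for Gjb2 (95% interval -3.95 to -0.35), with an unadjusted limma p of 0.0258 and an adjusted p of 0.0948. It was -0.72 for Gjb1 (-1.63 to 0.20, adjusted limma p of 0.249), -1.37 for Gjb5 (-5.38 to 2.65, adjusted limma p of 0.626) and 2.19 for Gjb6 (-1.11 to 5.48, adjusted limma p of 0.328). DESeq2 on the recovered reads called Gjb2 higher in the first set (adjusted p of 0.0193), whereas the authors' deposited table gave it a fold of 0.215 with an adjusted p of 0.122. The call for Gjb2 therefore depended on the test used.

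**Figure D2:**
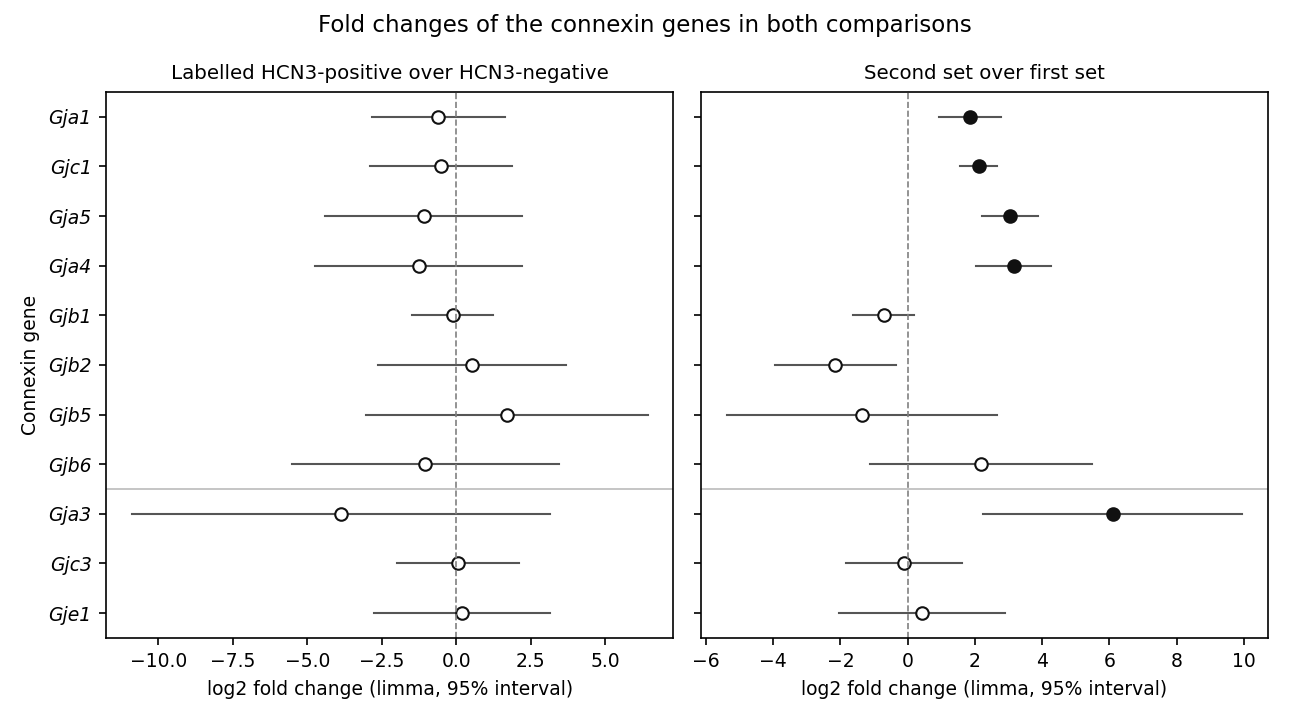
Log2 fold change (horizontal axis, different range in each panel) of the 8 members, Gja3, Gjc3 and Gje1 (vertical axis, members above the grey line) by label on the left and between the sets on the right. Points are limma estimates over 5 libraries, bars their 95% intervals and filled points genes with an adjusted p under 0.05. Every interval on the left crosses 0, while Gja1, Gjc1, Gja5, Gja4 and Gja3 are filled on the right.

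Of the other connexin genes in the table, Gja3, Gjc3 and Gje1 had a mean normalized count of at least 5 and are given for comparison. Gja3, which encodes Cx46, known from the lens, passed as higher in the second set with limma (adjusted p of 0.0398). It did not pass in the authors' deposited table, where the adjusted p was 0.442. Gja3 had normalized counts of 1.41 and 534 under the positive label, and 410, 83.2 and 4226 under the negative label, so that a single library stood far above the rest. Its call was lost with edgeR (adjusted p of 0.0868) and without any one of the 4 libraries other than negative-labelled 2, where the adjusted limma p lay from 0.0853 to 0.198.

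Gjc3 and Gje1 had log2 differences between the sets of -0.12 and 0.43, and neither passed in limma. Gje1 overlaps Nmbr, so its reads may not be its own alone. Gja6 and Gjd3 had at most 12 and 18 reads in any library. Among pannexins, channel proteins related in shape to connexins, Panx1 had normalized counts of 651 to 1289 and a log2 difference between the sets of 0.30 (adjusted limma p of 0.626), and Panx2 had at most 15 reads.

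Some connexin genes lie near one another on a chromosome, and such genes could be highest in different libraries. On chromosome 4, Gja4 and Gjb5 lie 40.8 kb apart on the same strand. Gja4 had 1361 reads in negative-labelled 1, where Gjb5 had 0, and Gjb5 was highest in positive-labelled 2. On chromosome 14, Gja3 and Gjb2 lie 40.5 kb apart, and Gjb2 and Gjb6 18.6 kb apart. There Gja3 was highest in negative-labelled 3, Gjb2 in positive-labelled 1, and Gjb6 in positive-labelled 2.

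Levels of different genes were compared per kb of exon in GENCODE M21. By the median over 5 libraries the order of the members was Gja1 (1321 normalized reads per kb), Gjc1 (1002), Gja4 (517), Gja5 (298), Gjb1 (159), Gjb2 (20.9), Gjb5 (13.5) and Gjb6 (5.08). Gja3, which is not a member, lay between Gjb1 and Gjb2 at 148. Gja1 exceeded Gjc1 in every library, but by as little as 1.01-fold in negative-labelled 1 and by at most 2.28-fold. Gja5 lay at 0.289 to 0.756 of Gja4. With the length of the longest transcript in place of the summed exons the order of the medians was the same, with Gja5 at 462 and Gja4 at 517. In negative-labelled 1, however, that length put Gja1 at 0.912 of Gjc1 and Gja5 at 1.17 times Gja4, so neither pair had a fixed order in that library. The ranges over the 5 libraries of neighbouring members in this order overlapped, except those of Gjb1 (143 to 288) and Gjb2 (10.2 to 89.6).

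Summed over the 17 connexin genes of the table, the level per kb was 989 and 1582 in the first set and 4385, 4290 and 6055 in the second. Gja1, Gjc1, Gja4 and Gja5 together made up 63.0% and 72.5% of that sum in positive-labelled 1 and negative-labelled 2, and 88.5%, 90.7% and 70.4% in positive-labelled 2, negative-labelled 1 and negative-labelled 3. In the last of these Gja3 took 25.2%. Gjb1 and Gjb2 together made up 30.9% and 20.7% in the first set and 2.87% to 3.95% in the second. In positive-labelled 1 the level per kb of Gja1 was only 1.28 times that of Gjb1, whereas in the second set it was 8.33 to 13.5 times.

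**Figure D3:**
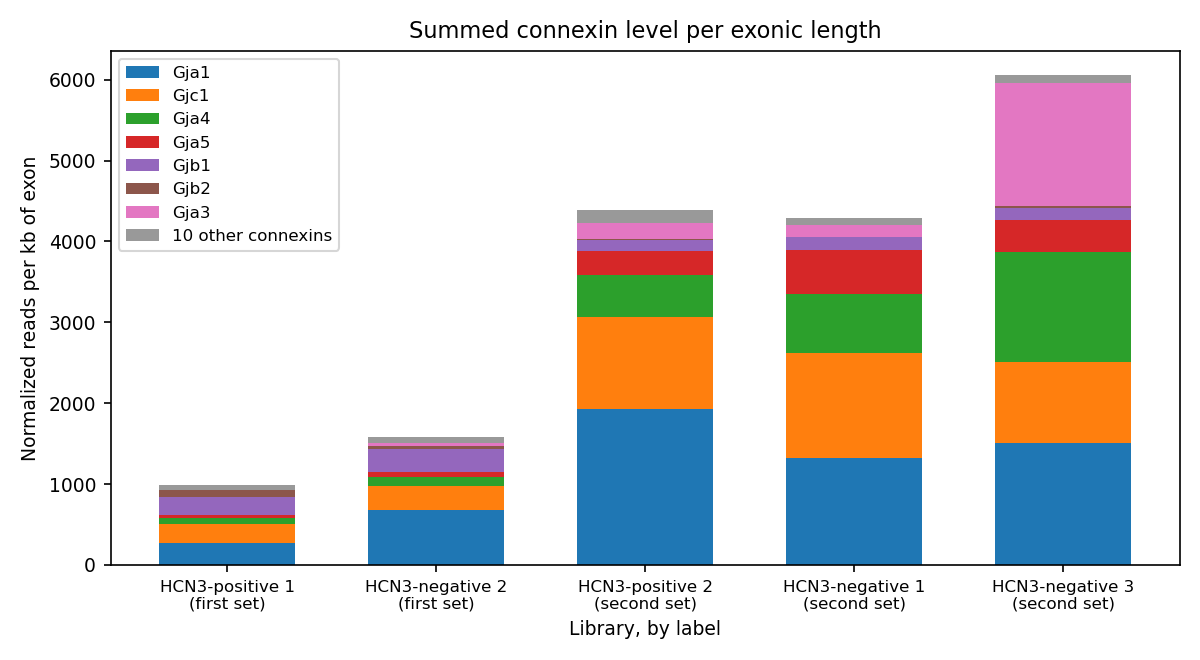
Normalized reads per kb of exon (vertical axis), stacked by connexin gene, in each library (horizontal axis, by label and set). Bars reach 989 and 1582 in the first set and 4290 to 6055 in the second, and Gja3 forms 25.2% of the bar of negative-labelled 3.

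Genes whose products bind connexins or regulate gap junctions were compared in the same way. Of 22 tested, 6 passed as higher in the second set and 0 as higher in the first, where 9.88% and 10.6% of all genes tested did. The median log2 difference was 0.66, beside 0.069 over all genes, and by label 0 passed in either direction. The 4 with the smallest p were Dbn1, an actin-binding protein that holds Cx43 at the membrane, Nedd4, a ubiquitin ligase that acts on Cx43, Tjp1, the scaffold ZO-1 that binds the tail of several connexins, and the adhesion component Ctnnb1. They rose by 1.94 (SE 0.19), 1.59 (SE 0.17), 2.50 (SE 0.40) and 0.86 (SE 0.17) on the log2 scale, with adjusted limma p of 0.00126, 0.00154, 0.00691 and 0.0139. Cdh2 and Cav1 made up the 6. Leaving out single libraries, 3 to 6 passed, and Dbn1 and Nedd4 were among them each time.

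By label the smallest p on the same list belonged to a pair of epithelial junction genes. Ocln, a tight junction protein, was at 2997 and 1678 under the positive label against 979, 1421 and 709 under the negative label. Its log2 difference by label was 1.17 (SE 0.44, adjusted limma p of 1.00). Cdh1, the epithelial cadherin, had 15586 and 12818 against 10353, 9557 and 4734, a log2 difference by label of 0.86 (SE 0.41, adjusted limma p of 1.00). For both genes the labelled groups did not overlap, with the positive label higher, as was so of 3 of the 22 genes and of 5.34% of all genes tested.

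Genes with the closest profile to each member were found by the root mean square difference of log2 values, each centred on its own mean, over the 5 libraries and 11940 candidate genes (11941 for Gjb2). For Gja1 they were Wasf1, Usp54 and Sall1 (0.12, 0.13 and 0.14), and for Gjc1 Ttc26, Snhg18 and Csrp1 (0.071, 0.085 and 0.089). For Gja5 the closest were Matn2, Ebf1 and Epas1 (each 0.18), and for Gja4 Gimap5, Fabp4 and Trib2 (0.051, 0.12 and 0.13). Those closest to Gjb1 were Srd5a3, Chmp1a and Lin9 (0.048, 0.054 and 0.054), and to Gjb2 Gch1, Abca7 and Irf2 (0.15, 0.19 and 0.19). Among the connexins themselves the closest pairs were Gja1 with Gjc1 (0.41) and Gja4 with Gja5 (0.45), while Gjb1 and Gjb2 differed by 0.93.

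Markers of cell types that a junction can hold moved with the sets too. Of 9 leukocyte genes tested, 9 passed as higher in the first set, and their summed normalized count was 336370 to 353719 there and 1075 to 2037 in the second set, where Fcgr1 was listed at 0 in 2 libraries. Csf1r, the receptor that marks macrophages, was at 92160 and 139878 in the first set and at 422 to 546 in the second. Gjb1 and Gjb2 were the members whose first-set values all lay above those of the second set, and the part of these cells in the level of any connexin was not tested.

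Genes of smooth muscle, endothelium, pericytes and stroma, cells in which some connexins are known to be expressed, lay with the second set. Of 10 smooth muscle genes 9 passed as higher there, with a summed normalized count of 28644 to 149379 against 5152 to 7188 in the first set. All 10 endothelial genes passed as well (32028 to 114744 against 7271 to 8098), as did 6 of 7 pericyte and renin lineage genes (21585 to 48485 against 2426 to 2718) and 7 of 7 genes of stroma and ureteric mesenchyme (70605 to 150153 against 8215 to 8272). Of 6 arterial endothelial genes 3 passed, with a median log2 difference of 1.88. Their sums, 20742 to 40451 against 16769 to 20758, overlapped between the sets. Of those that passed, Sox17, a transcription factor, rose by 3.23 (SE 0.61) on the log2 scale (adjusted limma p of 0.0120). Dll4, a Notch ligand, rose by 3.19 (SE 0.75, adjusted limma p of 0.0268). Efnb2 on the same list rose by 1.26 (SE 0.60) and did not pass (adjusted limma p of 0.196). No gene of these 5 lists was listed at 0 in any library. Within the second set, Gja4 and the endothelial and arterial endothelial sums were highest in negative-labelled 3, as were the podocyte and proximal tubule sums. The smooth muscle, pericyte and stroma sums were lowest of the 3 there. Gja5, Gjc1 and the smooth muscle, pericyte, stroma and urothelial sums were highest in negative-labelled 1. Gja5 was higher in negative-labelled 3 (2234) than in positive-labelled 2 (1695), whereas the smooth muscle sum was lower (28644 against 110023). Gja1 was at its lowest of the set in negative-labelled 1 (4453), and it was highest in positive-labelled 2. The part of any cell type in these differences was not tested.

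Epithelial lists did not separate the sets. Of 8 urothelial, 8 collecting duct and 8 proximal tubule genes, 0 passed in either direction. By label 0 passed as well, although 5 of the 8 collecting duct genes had groups that did not overlap, with the positive label higher, as was so of 5.34% of all genes tested and of 0 of the 8 connexins. The collecting duct sum was highest in positive-labelled 1, at 61688 against 8643 to 24196 in the others, and Gjb2 was highest there too. The other libraries did not follow that order, since positive-labelled 2 had the next collecting duct sum (24196) and the lowest Gjb2 (24.5). The proximal tubule sum was highest in negative-labelled 2, at 33472 against 4240 to 17463, and Gjb1 was highest there. Positive-labelled 1, however, had the lowest proximal tubule sum (4240) and a Gjb1 of 368, above every second-set library. Negative-labelled 3 had the next proximal tubule sum (17463) and a Gjb1 of only 261. Among urothelial genes, Trp63 was listed at 0 in negative-labelled 2 and Psca in positive-labelled 1, and among proximal tubule genes Slc5a2 was listed at 0 in positive-labelled 1. Of 6 podocyte genes 5 passed as higher in the second set, with a sum of 307419 in negative-labelled 3, where Gja3 also stood highest, and 6662 to 48978 in the others. The part of these cells in the connexin values was not tested.

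**Figure D4:**
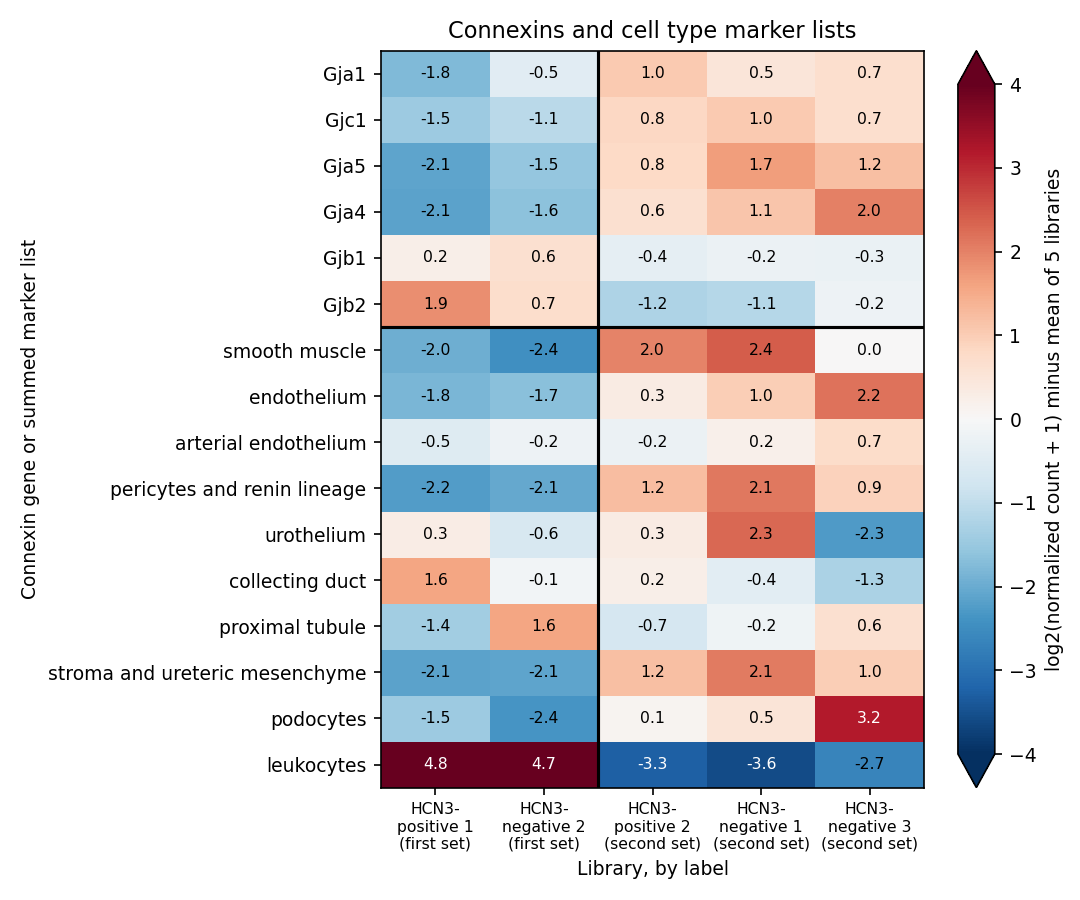
Log2(normalized count + 1) of 6 connexin genes (upper rows) and of the summed counts of 10 marker lists (lower rows) by library (columns), with the mean over libraries subtracted and the colour scale ending at 4 in each direction. Red marks values over that mean and blue values under it, the vertical black line divides the sets, and the leukocyte row lies at 4.78 and 4.71 on one side of it and between -3.58 and -2.66 on the other, while Gja1, Gjc1, Gja5 and Gja4 are below 0 in the first set and above it in the second.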

How the data were processed

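The submitters' processing notes name the build mm10, the aligner TopHat2 2.0.11, the counter HTSeq 0.6.1p2 and DESeq 1.18.0. Which gene models were counted is not given in the sources read. Libraries were made from Clontech cDNA with the Nextera XT kit, per the labels' protocols.

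The deposited signal columns hold gene read counts that the authors scaled by 1 size factor per library. The deposited table also gives the authors' fold as a ratio of means, its log2, and their p-value and adjusted p-value, per the file headers. Reads per gene were recovered as multiples of a library's lowest nonzero value, and 100% of values came out whole within a tolerance of 0.01. Rows of the counter that name no gene were left out. Of the reads in these rows and the gene rows together, 13.5% to 18.7% did not align uniquely. A further 8.58% to 14.0% lay in no gene and 0.792% to 2.32% were ambiguous. No pair of libraries was alike within sampling noise.

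Libraries were grouped by title. Tests used R 4.3.3 and limma 3.58.1 with a trended prior, fitted to log2(normalized count + 1) of the 16579 genes whose mean reached 5, 2-sided, with Benjamini-Hochberg adjustment over all of them and a threshold of 0.05. The same fit compared the sets of the deposited table. The design assumed these normalized values. edgeR 4.0.16 (quasi-likelihood) and DESeq2 1.42.0 were run on the recovered reads, which gave 2824 and 4526 genes between the sets. Fits were tested on simulated data. Exon lengths and positions come from GENCODE M21 (GRCm38), promoters from RefSeq. The genes named are the members, other connexins, the 4 genes of the partner list with the smallest p between sets and 2 by label, the first 3 of each marker list at most, and the 3 nearest profiles of each member with a mean of 50 or more, among genes with a mean of 100 or more, without pseudogenes, ribosomal protein genes, or predicted or clone names. Cdh2, Cav1, Fcgr1, Psca, Trp63 and Slc5a2 were named after their values were seen. The members, lists and sets were chosen with earlier results of these data known. Some other connexin genes, which enter the summed connexin level, are not reported here.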

Additional observations from a re-analysis of the deposited data

How the results depend on the processing

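By label the number of genes called was 0 under every alternative run but DESeq2, which called 10. With the replicate number as a block it was 0 as well, and no member changed its call under the replicate block. Deviations of same-numbered libraries from their label means correlated at -0.534 and -0.686. Both of these pairs cross the sets, so the values cannot tell whether same-numbered libraries share more than a number. Between the sets 3396 genes passed, and 1508 to 2901 with each library left out in turn. Fits that leave 1 library in a set assume that it varies like the others. Leaving out each library in turn, the log2 difference by label ranged from -2.0 to 0.80 for Gja1, -2.65 to 0.13 for Gja4, -2.55 to 0.35 for Gja5, -1.66 to 0.64 for Gjc1, -0.42 to 0.17 for Gjb1, -1.01 to 2.08 for Gjb2, 0.079 to 2.60 for Gjb5 and -3.59 to 1.52 for Gjb6, none of them called. Gjb6 also turned by label with edgeR (0.64) and DESeq2 (0.61), neither passing, and Gjb5 ranged from -2.41 to 0.30 between the sets. The mean share of Gja5 in the summed connexin level was 6.74%, and 13.1% with no length correction. The length of the longest transcript was an alternative chosen after seeing the data. For the members between the sets, 88 values under alternatives kept their direction and their side of the threshold, 4 lost the call, 1 gained it and 1 turned. Gjb5 and Gjb6 had no value with a minimum mean of 50. Counts under about 60 reads, as for Gjb5 and Gjb6, limit these genes to large differences.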
